A study of Mus musculus with 12 samples.

Results

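The mRNAs of 10 heat shock chaperones of the cytosol and the mitochondrial matrix were followed across 4 groups of mouse RNA-seq libraries: Hspa1a, Hspa1b, Hspa8, Hsph1, Hspb1, Dnajb1, Hsp90aa1, Hsp90ab1, Hspd1 and Hspe1. The members were listed by name, and all 10 were found among the 55487 Ensembl genes of the count table. The recipient cells were wild-type Hepa1, an established mouse hepatoma line, and primary mouse embryonic fibroblasts (MEFs) labelled Bach1-/-. Each cell type was kept for 4 days in medium that immortalised MEFs had conditioned for 48 h. The conditioning cells either re-expressed Bach1 and were labelled ferroptotic, or were control cells, and the media are called ferroptotic and control here. All groups received 0.1 mM 2-mercaptoethanol and 0.4 mg/mL vitamin E, the medium was DMEM with 10% fetal bovine serum, and it was replaced daily. There were 3 libraries each of Hepa1 in ferroptotic medium, Hepa1 in control medium, MEFs in ferroptotic medium and MEFs in control medium. Whether replicates were separate cultures is not stated, and the p-values cover only the spread between these libraries, which may be technical.

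Heat shock proteins bind unfolded or partly folded proteins and help them to fold, to stay soluble or to be degraded. In the cytosol HSP70 proteins work with J-domain proteins, which deliver substrates and start ATP hydrolysis, and with exchange factors, which release ADP, and HSP90 acts on proteins that are already partly folded. In the mitochondrial matrix HSP60 and its lid HSP10 form a folding chamber. Many of these genes are induced through heat shock factor 1, which binds repeats of the motif GAA in alternating orientation, and some are also expressed in unstressed cells.

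The libraries held 18582713 to 23397981 counts on genes, and CPM is a gene's share of that total in counts-per-million units, on which 3 reads are worth 0.128 to 0.161 CPM. The CPM values below were in addition scaled between libraries (TMM). Bach1 was read at 85.0 to 91.7 CPM in MEFs in ferroptotic medium and at 90.0 to 101 CPM in MEFs in control medium. In wild-type Hepa1 it was read at 93.3 to 102 CPM in ferroptotic medium and at 116 to 123 CPM in control medium. The counts cover the whole gene and the deleted exons are not named, which leaves the deletion unchecked. Alb had 0 reads in MEFs, against 244 to 263 CPM in Hepa1 in ferroptotic medium and 25.3 to 30.9 CPM in Hepa1 in control medium. The hepatocyte markers Apoa1, Ttr and Serpina1a had 0 reads in all 12 libraries, and Hnf4a had 1 read in all, in a Hepa1 library in control medium. The 10 fibroblast markers summed to 82391 to 84560.1 CPM in MEFs in ferroptotic medium and 95389 to 101212 CPM in MEFs in control medium, against 3271 to 3414 CPM and 2837 to 3207 CPM in Hepa1 in ferroptotic and control medium. Dcn alone among them was higher in Hepa1, at 255 to 282 CPM in ferroptotic medium and 217 to 256 CPM in control medium. In MEFs Dcn had 13.4 to 17.2 CPM in ferroptotic medium and 3.96 to 4.93 CPM in control medium. Col1a2, a fibroblast collagen gene, had 368 reads in replicate 3 of Hepa1 in ferroptotic medium and 12 to 23 reads in each other Hepa1 library. That is 0.0767% of the MEF level in control medium, and results that use this library were also computed without it. In bulk RNA fewer cells of a type and less RNA per cell cannot be told apart.

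Some chaperone mRNAs were called different between the media, as were many genes in general, and Hspa8 was the member called in both cell types. Its MEF change was small, and that call was lost with no scaling beyond total counts and without MEF ferroptotic replicate 1. In Hepa1 Hsp90aa1, Hspa8, Hspd1 and Hspe1 fell and 0 members rose. In MEFs Hspb1, Hsph1 and Hspa8 fell and Hspa1b rose. The call was an adjusted p (Benjamini-Hochberg over all genes tested) under 0.05 in the quasi-likelihood test of edgeR, and it was common among genes in general. In Hepa1 7 members were tested, with 4 lower where 28.9% of all genes were called lower and 29.3% higher. In MEFs all 10 members were tested, with 3 lower and 1 higher where 27.3% of all genes were called lower and 27.9% higher. With no scaling beyond total counts the MEF calls over all genes were 5234 higher and 2971 lower, in place of 4025 and 3946, and those among the members were 3 higher and 2 lower. In Hepa1 the calls over all genes were then 4514 higher and 3173 lower, in place of 3865 and 3802, and those among the members were 2 higher and 4 lower. The median log2 fold change of the tested members was -0.18 in Hepa1 and -0.01 in MEFs, beside 0.00446 and 0.0033 over all genes tested. In Hepa1 the filter on low counts removed Hspa1a, Hspa1b and Hspb1. The plot of the members by library shows these values.

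**Figure D1:**
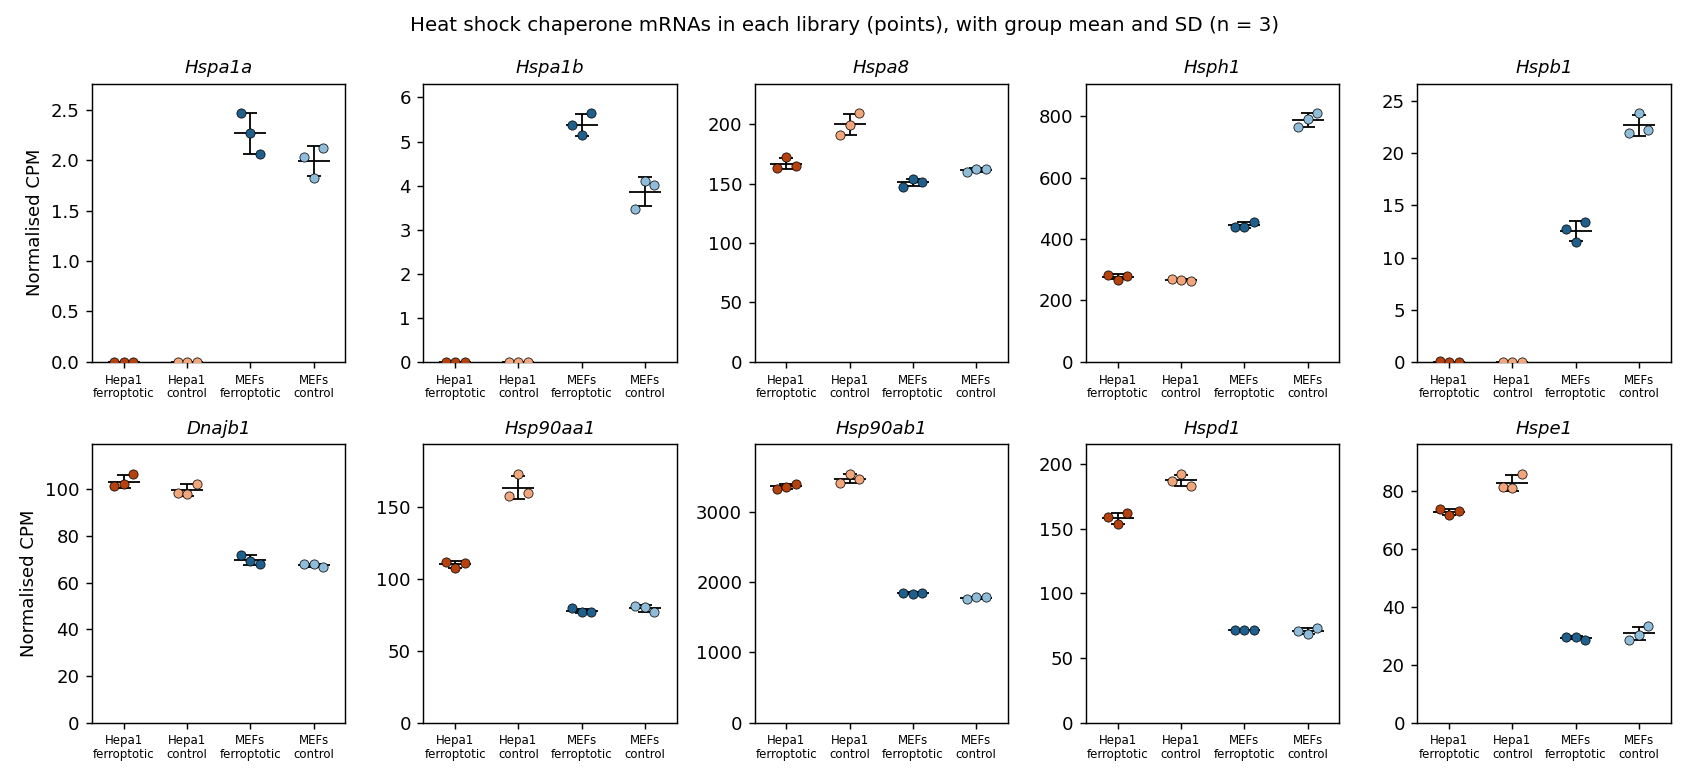
Normalised CPM (vertical axis, from 0, a scale of its own for each gene) of the 10 chaperone mRNAs in each library, with Hepa1 in red tones and MEFs in blue tones and the ferroptotic medium left of the control medium. Bars give the group mean and SD (n = 3); in MEFs the Hsph1 points lie between 440 and 456 CPM in ferroptotic medium and between 765 and 809 CPM in control medium.

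The inducible HSP70 genes Hspa1a and Hspa1b encode nearly the same protein and lie close together on chromosome 17 (GRCm38; Hspa1a at 34969190 to 34972156 and Hspa1b at 34956436 to 34959238, both on the minus strand, each a single exon). In the annotation's transcripts 66.3% of the 50-base words of Hspa1a and 62.3% of those of Hspa1b also occur in another gene, above all in each other. The read summary of the count files lists 0 reads as not uniquely aligned, and how reads that fit both copies were handled is not given in the sources used here, so the split between the copies is uncertain. No read fell on Hspa1a or Hspa1b in any of the 6 Hepa1 libraries.

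Hspa1b rose in MEFs. It had 98, 95 and 112 reads in the libraries in ferroptotic medium, against 60, 74 and 68 in control medium. On the normalised scale these were 5.37, 5.14 and 5.64 CPM in ferroptotic medium and 3.48, 4.10 and 4.01 CPM in control medium, and the groups did not overlap. The log2 fold change was 0.48 (SE 0.138, edgeR adjusted p = 0.00193). Hspa1a had 45, 42 and 41 reads in MEFs in ferroptotic medium and 35, 33 and 36 in control medium, or 2.47, 2.27 and 2.06 CPM against 2.03, 1.83 and 2.13 CPM. These groups overlapped, and the log2 fold change of 0.19 (95% interval -0.21 to 0.58, edgeR adjusted p = 0.445) did not pass. The interval includes the value of Hspa1b, and the difference between the copies was not tested. With the counts of both genes summed the log2 fold change was 0.39 (edgeR adjusted p = 0.00253). In addition 564 bases of Hspa1a overlap exons of Gm20481 on the other strand, and the strand setting of the counting is not given in the sources used here. Gm20481 itself had 0 reads in all libraries.

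Because Hepa1 had 0 reads, its ratio to MEFs is a bound. Counted against a floor of 3 reads over the Hepa1 group, Hspa1b was at least 130-fold lower in Hepa1 than in MEFs in ferroptotic medium and at least 90.6-fold lower in control medium. For Hspa1a the bounds were at least 54.4-fold and at least 46.7-fold lower in Hepa1. Hspa1l, a relative of these genes that shares 7.95% of the words of Hspa1a, had 11 reads in Hepa1 in ferroptotic medium and 7 in control medium.

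The sequence before the start of both genes is shown because the pair shares it almost entirely. It comes from RefSeq (GRCm38.p6), whose promoter table held 7 of the 10 members, and runs from 250 bases before the start to the base before it, on the minus strand. Capitals mark a heat shock element pair, GAANNTTC or TTCNNGAA, each of which reads the same on both strands. Hspa1a lies at chr17:34972157-34972406 and Hspa1b at chr17:34959239-34959488.
Hspa1a: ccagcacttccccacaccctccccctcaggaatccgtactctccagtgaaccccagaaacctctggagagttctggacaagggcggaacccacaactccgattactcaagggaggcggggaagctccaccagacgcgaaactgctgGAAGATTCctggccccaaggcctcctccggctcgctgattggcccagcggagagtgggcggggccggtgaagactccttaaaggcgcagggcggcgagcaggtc
Hspa1b: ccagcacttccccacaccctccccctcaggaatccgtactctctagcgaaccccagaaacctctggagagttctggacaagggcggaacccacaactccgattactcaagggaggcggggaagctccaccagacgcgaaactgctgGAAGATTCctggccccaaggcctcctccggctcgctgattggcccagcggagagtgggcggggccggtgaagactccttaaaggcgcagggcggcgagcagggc
Over these 250 bases the sequences differed at 3 positions, T44C, C47T and G249T, with the base of Hspa1b first, the position counted from 1 at the 5′ end, and the base of Hspa1a last. Each held 1 pair, GAAGATTC, ending 97 bases before the start, and the differences lie outside it.

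Such pairs are frequent in promoters. Of 27025 genes with a window of 300 bases (250 before to 50 after a start) in the RefSeq table, 17% held at least 1 pair in a window, and 6 of the 7 members with a window did. The longer arrangements GAANNTTCNNGAA and TTCNNGAANNTTC, which are each other's reverse complement and contain a pair of each kind, were in windows of 0.662% of the genes, among them Hspd1, Hspe1 and Hsph1. The Dnajb1 windows held neither. A match describes the letters and does not show that a factor binds.

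Hspa8 encodes the constitutive HSP70 of the cytosol, HSC70, which also drives clathrin uncoating and chaperone-mediated autophagy. It fell in both cell types. In Hepa1 it had 163, 172 and 165 CPM in ferroptotic medium, against 191, 199 and 209 CPM in control medium, without overlap, and the log2 fold change was -0.26 (SE 0.0370, edgeR adjusted p = 3.0e-07). In MEFs it had 148, 154 and 151 CPM in ferroptotic medium and 160.0, 162 and 163 CPM in control medium, without overlap. That difference was small, with a log2 fold change of -0.09 (SE 0.0310, edgeR adjusted p = 0.00695). The MEF call was lost without MEF ferroptotic replicate 1 (log2 fold change -0.08, edgeR adjusted p = 0.0635) and with no scaling beyond total counts (-0.03, edgeR adjusted p = 0.506). The fall was larger in Hepa1 by a log2 of -0.16 (Hepa1 minus MEFs, SE 0.0506, edgeR adjusted p = 0.00626).

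The inducible HSP70 mRNAs were set against the constitutive one in MEFs. Per exon length, Hspa1a and Hspa1b together stood at 7.65 ± 0.368% of the Hspa8 level in ferroptotic medium and at 5.46 ± 0.256% in control medium (SD, n = 3 each). Reads on copies are left out, which for Hspa8 were 22.1 to 22.3% of the reads on gene and copies in MEFs. The libraries did not overlap, and the exact two-sided permutation test gave p = 0.1, the smallest value that 3 against 3 libraries allow. Over the 5 ratios tested in this way the Benjamini-Hochberg adjusted exact permutation p was 0.167.

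Hsph1 encodes HSP110, a large relative of HSP70 that exchanges its nucleotide and helps to dissolve aggregates. It showed the smallest adjusted p among the members in MEFs. MEFs had 440, 440 and 456 CPM in ferroptotic medium, against 765, 790 and 809 CPM in control medium. The groups were far apart, and the log2 fold change was -0.82 (SE 0.0275, edgeR adjusted p = 1.2e-42). Hepa1 had 281, 268 and 281 CPM in ferroptotic medium and 269, 268 and 264 CPM in control medium, with overlap and a log2 fold change of 0.05 (95% interval -0.01 to 0.12, edgeR adjusted p = 0.174). Without TMM scaling the Hepa1 value passed, at 0.10 (edgeR adjusted p = 0.0106). The responses differed by a log2 of 0.87 (Hepa1 minus MEFs, SE 0.0459, edgeR adjusted p = 5.6e-26). No 50-base word of Hsph1 occurs in another annotated transcript.

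Hspb1 encodes the small heat shock protein HSP25 (HSP27 in human), which binds unfolding proteins without using ATP and acts on actin. It also fell in MEFs. There were 232, 213 and 266 reads in ferroptotic medium, against 379, 430 and 377 in control medium, or 12.7, 11.5 and 13.4 CPM against 22.0, 23.8 and 22.3 CPM. The groups did not overlap, and the log2 fold change was -0.85 (SE 0.0749, edgeR adjusted p = 3.5e-17). In Hepa1 it had 1 read in all, in replicate 1 of the ferroptotic medium. Against the floor of 3 reads over the group it was at least 532-fold lower in Hepa1 than in MEFs in control medium. In ferroptotic medium the ratio of MEFs over Hepa1 rests on that 1 Hepa1 read, and its 95% counting interval (exact Clopper-Pearson) ran from 162 to 35849 around a value of 906. Of the 50-base words of Hspb1, 50.1% occur in another gene, mostly in the processed pseudogene Hsp25-ps1, which held 36 reads in MEFs in ferroptotic medium and 51 in control medium.

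Hsph1 and Hspb1, both on chromosome 5, had the largest falls among the members in MEFs, and their heat shock element pairs are shown for that reason. For Hspb1 the stretch is chr5:135887742-135887889 on the plus strand, before its start, with 2 pairs. For Hsph1, 30 bases around each site are shown on the minus strand, at chr5:149636351-149636380 and chr5:149636287-149636316, and the annotation places both sites in an Hsph1 exon. In the last of these a TTCNNGAA and a GAANNTTC overlap. Before and after in the Hsph1 labels refer to the RefSeq start of the promoter window, not to the start in the annotation.
Hspb1: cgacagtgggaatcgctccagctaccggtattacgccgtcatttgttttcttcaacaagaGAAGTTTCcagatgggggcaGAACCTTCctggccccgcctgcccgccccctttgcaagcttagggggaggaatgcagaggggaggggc
Hsph1, site before: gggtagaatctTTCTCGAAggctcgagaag
Hsph1, site after: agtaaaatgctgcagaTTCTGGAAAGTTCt

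Dnajb1 encodes HSP40, the main stress-inducible J-domain partner of HSP70. It passed the test in neither cell type. Hepa1 had 101, 102 and 106 CPM in ferroptotic medium and 98.5, 97.9 and 102 CPM in control medium. MEFs had 71.9, 69.4 and 67.9 CPM in ferroptotic medium and 67.9, 67.8 and 66.7 CPM in control medium. The libraries of the 2 media overlapped in Hepa1 and lay side by side without overlap in MEFs. The log2 fold changes were 0.05 in Hepa1 (95% interval -0.02 to 0.13, edgeR adjusted p = 0.232) and 0.05 in MEFs (95% interval -0.03 to 0.13, edgeR adjusted p = 0.301). With no scaling beyond total counts both passed, at 0.10 in Hepa1 (edgeR adjusted p = 0.0226) and 0.12 in MEFs (edgeR adjusted p = 0.0107).

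**Figure D2:**
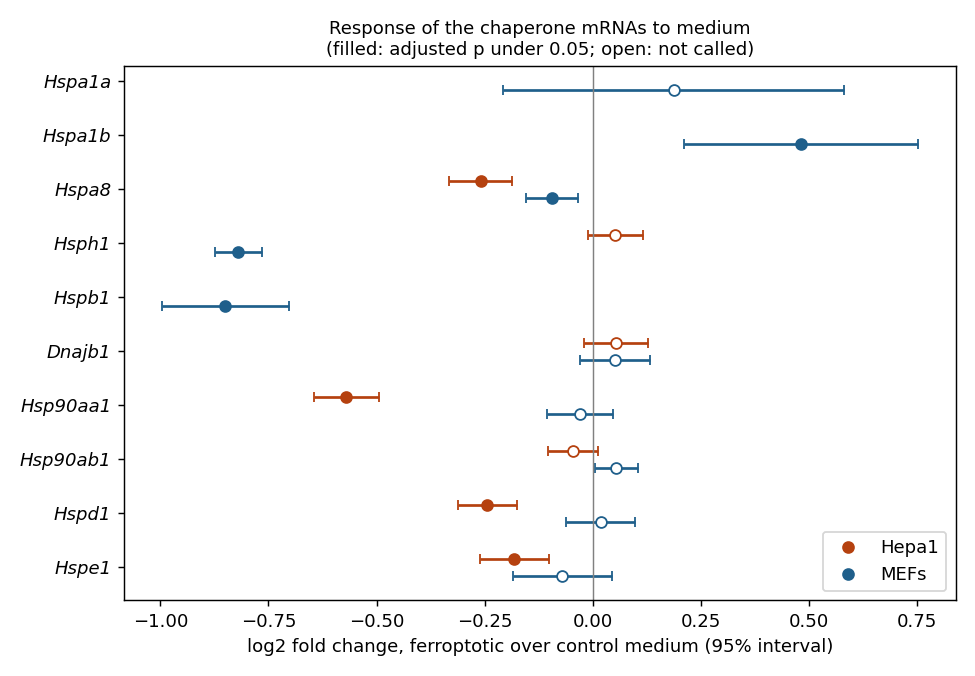
Log2 fold change of each chaperone mRNA, ferroptotic over control medium (horizontal axis), with a 95% interval of 1.96 standard errors, in Hepa1 (red, 7 genes tested) and in MEFs (blue, 10 genes). Filled points have an edgeR adjusted p under 0.05; Hsp90aa1 lies at -0.57 in Hepa1 and -0.03 in MEFs, and Hsph1 at 0.05 in Hepa1 and -0.82 in MEFs.

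The cytosolic HSP90 genes parted in Hepa1. Hsp90aa1 encodes the alpha form, the more stress-inducible of the pair. It had 112, 107 and 111 CPM in Hepa1 in ferroptotic medium, against 158, 173 and 159.6 CPM in control medium, without overlap. Its log2 fold change was -0.57 (SE 0.0379, edgeR adjusted p = 9.0e-15), and 83.7% of all genes tested in Hepa1 moved by less in either direction. In MEFs it had 79.4, 76.6 and 76.9 CPM in ferroptotic medium and 81.0, 80.1 and 76.9 CPM in control medium, with overlap and a log2 fold change of -0.03 (edgeR adjusted p = 0.547). The responses differed by -0.54 (Hepa1 minus MEFs, SE 0.0564, edgeR adjusted p = 1.1e-12).

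Hsp90ab1 encodes the constitutive beta form and had the highest level per exon length (RPKM) of all members in every group. Hepa1 had 3330.3, 3357 and 3402 CPM in ferroptotic medium and 3410.4, 3538 and 3472 CPM in control medium. MEFs had 1848, 1832 and 1852 CPM in ferroptotic medium and 1764, 1791 and 1784 CPM in control medium. In neither cell type did the libraries of the 2 media overlap, but the differences were small. The log2 fold change was -0.05 in Hepa1 (95% interval -0.10 to 0.01, edgeR adjusted p = 0.198). It was 0.05 in MEFs (95% interval 0.00431 to 0.10, edgeR adjusted p = 0.0637), which passed in the DESeq2 Wald test (adjusted p = 0.0403), in limma-voom (adjusted p = 0.0200) and with at least 1 CPM in 3 libraries as the filter (edgeR adjusted p = 0.0362). Without TMM scaling it was 0.12 in MEFs (edgeR adjusted p = 1.4e-05).

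The ratio of the forms does not depend on the scaling of a library. Per exon length, Hsp90aa1 stood at 2.49 ± 0.0567% of the Hsp90ab1 level in Hepa1 in ferroptotic medium and at 3.59 ± 0.118% in control medium (SD, n = 3 each). In MEFs it stood at 3.21 ± 0.0590% in ferroptotic medium and at 3.40 ± 0.107% in control medium. These percentages count each gene's own reads and leave out its copies. Neither cell type's libraries overlapped, and each exact two-sided permutation p was 0.1, the smallest possible. The processed copies of Hsp90aa1, Gm12346, Gm5844 and Gm5511, held 24.0 to 25.0% of the reads on the gene and copies together across the 4 groups. With them added, the log2 difference of the ratio in Hepa1 was -0.52, as it was without them. Copies of Hsp90ab1 held a smaller share, 2.14 to 2.26%.

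The mitochondrial chaperonin genes Hspd1 (HSP60) and Hspe1 (HSP10) lie head to head on chromosome 1 (GRCm38; Hspd1 at 55077835 to 55088243 on the minus strand and Hspe1 at 55088132 to 55091307 on the plus strand), and 112 bases of their exons overlap. Both fell in Hepa1. Hspd1 had 159, 153 and 162 CPM in Hepa1 in ferroptotic medium, against 187, 192 and 183 CPM in control medium, and its log2 fold change was -0.24 (SE 0.0346, edgeR adjusted p = 2.7e-07). Hspe1 had 73.6, 71.7 and 73.0 CPM in ferroptotic medium, against 81.1, 80.9 and 85.7 CPM in control medium, and its log2 fold change was -0.18 (SE 0.0408, edgeR adjusted p = 0.000281). Neither gene's groups overlapped in Hepa1.

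In MEFs the chaperonin genes overlapped between media. Hspd1 had 72.0, 71.4 and 71.7 CPM in ferroptotic medium and 70.9, 68.7 and 73.4 CPM in control medium (log2 fold change 0.02, edgeR adjusted p = 0.723). Hspe1 had 29.5, 29.6 and 28.6 CPM in ferroptotic medium and 28.6, 30.4 and 33.2 CPM in control medium (log2 fold change -0.07, edgeR adjusted p = 0.315). The responses differed for Hspd1, by -0.26 (Hepa1 minus MEFs, SE 0.0548, edgeR adjusted p = 5.8e-05). For Hspe1 the difference was -0.11 (95% interval -0.25 to 0.03, edgeR adjusted p = 0.237).

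The partners were also set against each other, in a test whose smallest p is 0.1 with 3 against 3 libraries. Per exon length Hspd1 over Hspe1 was 1.21 ± 0.0224 in Hepa1 in ferroptotic medium and 1.27 ± 0.0677 in control medium (SD, n = 3 each, exact permutation p = 0.4). In MEFs it was 1.37 ± 0.0266 in ferroptotic medium and 1.29 ± 0.0788 in control medium (exact permutation p = 0.3). The pair shares 1 cluster of heat shock elements, shown because both promoter windows hold it. It lies at chr1:55088053-55088082, printed on the plus strand, 72 bases before the start of Hspe1 and within an annotated exon of Hspd1. The capitals cover 3 overlapping pairs.
Hspd1 and Hspe1: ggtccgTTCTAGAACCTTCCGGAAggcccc

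Reads were also counted on annotated copies of the chaperonin genes, and whether they stem from the copies or from the members was not tested. The processed pseudogene Hspd1-ps3 and smaller copies held 33.5 to 35.2% of the reads on Hspd1 and copies across the 4 groups, and AC117239.2 with smaller copies held 33.7 to 35.1% of those on Hspe1 and copies. For Hspa8 the share was 21.5 to 22.3%, mostly on Gm15459 and Gm8355, and for Hsp90ab1 2.14 to 2.26%. When reads on the copies were added to each member, the counts of members called stayed at 4 lower and 0 higher in Hepa1 and 3 lower and 1 higher in MEFs.

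The responses of the cell types were compared in a fit over all 12 libraries. Cell type, the Bach1 label and culture history (established line or primary cells) differ together, so they cannot be told apart in this difference. Hsph1 was called higher in this difference (Hepa1 minus MEFs) and Hsp90aa1, Hspd1 and Hspa8 lower, where 23.3% of all genes were called higher and 21% lower. Hsp90ab1 was close to the threshold (-0.10, edgeR adjusted p = 0.0660) and was called with DESeq2 size factors (edgeR adjusted p = 0.0334), in limma-voom (adjusted p = 0.00219) and in the DESeq2 Wald test (adjusted p = 0.00206). It was also called without TMM scaling (-0.12, edgeR adjusted p = 0.0106), without Hepa1 control replicate 1 (edgeR adjusted p = 0.0334) and without MEF ferroptotic replicate 2 (edgeR adjusted p = 0.0485). The difference of Dnajb1 was 0.00498 (95% interval -0.11 to 0.12, edgeR adjusted p = 1.00). Hspa1a, Hspa1b and Hspb1 were at 0 or 1 read in Hepa1, so no difference of responses is given for them.

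**Figure D3:**
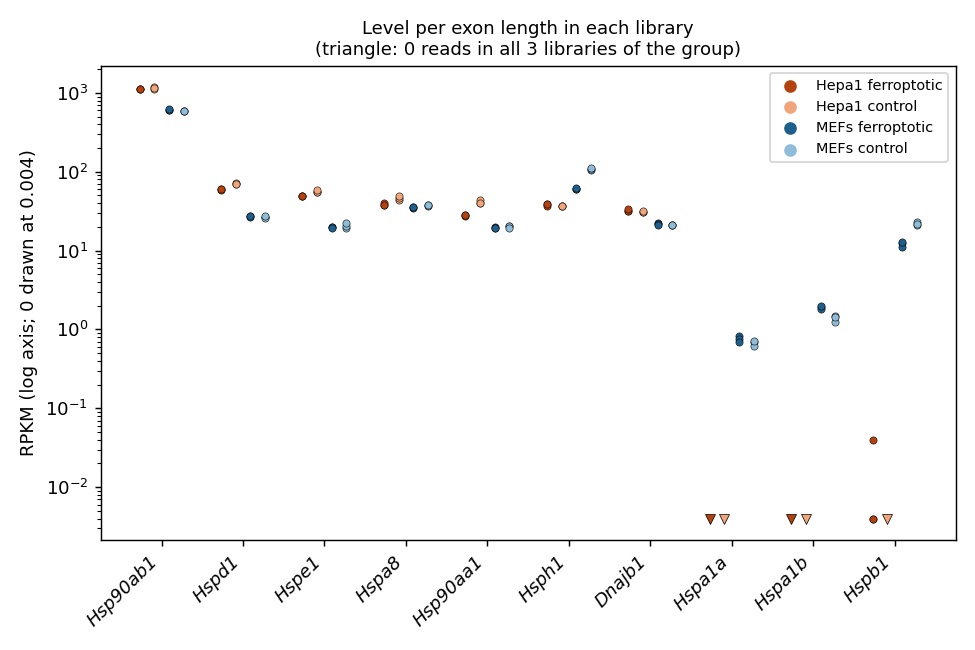
RPKM (CPM per kilobase of exon, log axis) of each chaperone gene in every library, 3 points for each group, with genes ordered by their Hepa1 level in control medium. Triangles mark groups with 0 reads in all libraries; Hsp90ab1 lies near 1121 and 1158 RPKM in Hepa1 and near 615 and 594 RPKM in MEFs (ferroptotic and control medium).

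Between the cell types 6 members were higher in Hepa1 and 4 were lower, in both media. Here too the Bach1 label and culture history differ with the cell type and cannot be told apart from it. In ferroptotic medium 41.5% of all genes were called higher in Hepa1 and 46.7% lower, and in control medium 40.7% and 45.9%. Hspe1 and Hspd1 differed most among the higher members, with log2 fold changes (Hepa1 over MEFs) of 1.32 and 1.14 in ferroptotic medium and 1.43 and 1.40 in control medium. Hsp90ab1 stood at 0.87 in ferroptotic medium and 0.96 in control medium. Hsp90aa1 stood at 0.50 in ferroptotic medium and 1.04 in control medium. Dnajb1 stood at 0.57 in ferroptotic medium and 0.56 in control medium, and Hspa8 at 0.14 and 0.31. Hsph1 was lower in Hepa1, by a log2 fold change of -0.69 in ferroptotic medium and -1.56 in control medium, and Hspa1a, Hspa1b and Hspb1 were the others. The largest edgeR adjusted p among these fitted values was 0.000217, for Hspa8 in ferroptotic medium.

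The balance of calls between the cell types changed with the scaling. With no scaling beyond total counts the median log2 difference of all genes in control medium (Hepa1 over MEFs) was 0.49 in place of -0.08, and the calls were 9099 higher and 5003 lower in place of 6355 and 7179. In ferroptotic medium they were 9032 higher and 5109 lower in place of 6490 and 7295. The members split as 6 higher and 4 lower in both scalings and in both media, but the sizes moved. Without TMM scaling Hspa8 stood at 0.68 in ferroptotic medium and 0.87 in control medium, and Hsph1 at -0.15 and -0.996. Dnajb1 stood at 1.11 in ferroptotic medium and 1.13 in control medium, Hsp90aa1 at 1.04 and 1.61, and Hsp90ab1 at 1.41 and 1.53. Hspd1 stood at 1.68 in ferroptotic medium and 1.96 in control medium, and Hspe1 at 1.86 and 1.99. Plain shares of the total count gave the members together 0.521 to 0.525% in Hepa1 in ferroptotic medium and 0.528 to 0.541% in Hepa1 in control medium. In MEFs they held 0.228 to 0.231% in ferroptotic medium and 0.241 to 0.245% in control medium.

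Per exon length Hsp90ab1 dominated the members' sum. It made up 82.0 ± 0.186% of the summed RPKM of the 10 genes in Hepa1 in ferroptotic medium and 80.4 ± 0.137% in control medium, and 75.5 ± 0.0369% in MEFs in ferroptotic medium and 69.6 ± 0.290% in control medium (SD, n = 3 each). In Hepa1 in ferroptotic medium Hspd1 (59.9 RPKM), Hspe1 (49.4), Hspa8 (38.8), Hsph1 (38.1), Dnajb1 (32.2) and Hsp90aa1 (28.0 RPKM) followed. Hspa8 and Hsph1 overlapped there and the other neighbours did not. In Hepa1 in control medium the order was Hspd1, Hspe1, Hspa8, Hsp90aa1, Hsph1 and Dnajb1, from 70.9 down to 31.1 RPKM, with no overlap between neighbours. These levels divide each gene's own reads by the length of all its annotated exons together. Reads on copies are left out, their share differs between members, and the order with copies added was not computed.

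In MEFs Hsph1 was the next after Hsp90ab1, at 61.3 ± 1.30 RPKM in ferroptotic medium and 108 ± 3.02 RPKM in control medium. In ferroptotic medium Hspa8 (35.1 RPKM), Hspd1 (27.1), Dnajb1 (21.8), Hspe1 (19.8), Hsp90aa1 (19.7), Hspb1 (12.2), Hspa1b (1.92) and Hspa1a (0.764 RPKM) came after it, and Hspe1 and Hsp90aa1 overlapped. In control medium Hspb1 stood at 22.0 RPKM, above Dnajb1 (21.1), Hspe1 (20.9) and Hsp90aa1 (20.2 RPKM). Dnajb1 overlapped with Hspe1 there, and Hspe1 with Hsp90aa1. This order also counts own reads only. In that group copies held 33.7% of the reads on Hspe1 and copies and 25.0% for Hsp90aa1, against 4.12% for Hspb1. Replicates lay close together: for members above 10 CPM the coefficient of variation within a group ran from 0.426 to 7.54%, with a median of 2.44%.

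The wider chaperone network was read from 11 lists with 107 genes that are not members. In Hepa1 25 of 101 tested were higher and 34 lower, and in MEFs 20 of 102 were higher and 40 lower. Over all genes 29.3% were called higher and 28.9% lower in Hepa1, and 27.9% and 27.3% in MEFs. The balance of these lists turned without TMM scaling, with 32 higher and 26 lower in Hepa1 and 32 higher and 25 lower in MEFs, and 8 of the lower calls in Hepa1 and 15 in MEFs were lost. The median log2 fold change over them was -0.02 in Hepa1 and -0.06 in MEFs, beside the near-0 medians over all genes given above, and 0.02 and 0.01 without TMM scaling.

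Of the 4 genes of heat shock factors and their regulators, 1 rose and 2 fell in Hepa1, and 2 rose and 0 fell in MEFs. Hsf1, which encodes the main activator of the heat shock response, had a log2 fold change of -0.04 in Hepa1 (edgeR adjusted p = 0.437) and rose in MEFs by 0.18 (edgeR adjusted p = 0.0011). Hsf4 fell in Hepa1 (-0.41) and rose in MEFs (0.40), at 6.20 CPM or less in every group. Hsf2 fell in Hepa1 (-0.19), and Hsbp1, which encodes a protein that binds heat shock factor 1, rose there (0.14).

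Relatives of the members did not follow a single direction. Among 7 tested relatives of HSP70 and HSP110, 2 rose and 1 fell in Hepa1, and 2 rose and 3 fell in MEFs. Hspa13, an HSP70 relative of microsomes, rose in Hepa1 (0.52, edgeR adjusted p = 3.6e-14) and fell in MEFs (-0.32, edgeR adjusted p = 2.5e-15). Hspa2 fell in MEFs (-0.67), and Hspa4l, a relative of Hsph1, fell in both (-0.53 in Hepa1 and -0.25 in MEFs), where the MEF call was lost with no scaling beyond total counts (-0.18, edgeR adjusted p = 0.106). Hspa12b rose in Hepa1 (1.15) at a mean of 1.45 CPM in ferroptotic medium and 0.657 CPM in control medium.

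Among 4 tested small heat shock protein genes besides Hspb1, Cryab and Hspb1 moved in opposite directions in MEFs. Cryab, which encodes alpha B crystallin, averaged 154 CPM in MEFs in ferroptotic medium and 87.1 CPM in control medium (log2 fold change 0.83, edgeR adjusted p = 2.7e-36), and it rose in Hepa1 as well (0.38). Hspb6 fell in MEFs (-0.62). Hspb8 fell in Hepa1 (-0.53), where it averaged 299.6 CPM in ferroptotic medium and 434 CPM in control medium.

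Co-chaperones of HSP70 and HSP90 were mixed. Of 14 tested J-domain genes besides Dnajb1, 3 rose and 9 fell in Hepa1, and of 15 in MEFs 5 rose and 5 fell (6 and 1 with no scaling beyond total counts). Dnajc9, a histone chaperone with a J domain, rose in both (0.78 in Hepa1 and 0.98 in MEFs), and Dnajb4, a close relative of Dnajb1, rose in Hepa1 (0.26) and fell in MEFs (-0.44). Of 9 exchange factors and partners of HSP70, 1 fell and 0 rose in Hepa1, and 4 fell and 0 rose in MEFs. Without TMM scaling these were 0 lower and 1 higher in Hepa1 and 1 lower and 2 higher in MEFs. Of 20 tested HSP90 co-chaperone genes, 6 rose and 6 fell in Hepa1, and 6 rose and 1 fell in MEFs (10 and 0 with no scaling beyond total counts). Fnip2, a regulator of HSP90's ATPase, stood at -0.79 in Hepa1 and 0.36 in MEFs, and Ppp5c, a phosphatase bound by HSP90, rose in both (0.31 and 0.36).

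The cytosolic chaperonin TRiC, which folds actin and tubulin, and prefoldin, which hands substrates to it, fell in MEFs. Of 8 TRiC genes, 7 fell and 0 rose in MEFs (median -0.22), against 1 lower and 2 higher in Hepa1 (median -0.01). Cct2 stood at -0.46 and Tcp1 at -0.42 in MEFs. All 6 prefoldin genes fell in MEFs (median -0.24), against 1 lower and 1 higher in Hepa1, where Vbp1 rose (0.25). With no scaling beyond total counts 6 TRiC and 5 prefoldin genes were called lower in MEFs, and prefoldin had 0 lower and 3 higher in Hepa1. The difference between cell types (Hepa1 minus MEFs) was called higher for 7 of 8 TRiC and 5 of 6 prefoldin genes, where 23.3% of all genes were. With no scaling beyond total counts these were 7 TRiC and 4 prefoldin genes.

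Other mitochondrial chaperone and protease genes split as 5 higher and 5 lower of 16 in Hepa1, and 2 higher and 5 lower in MEFs (4 and 3 with no scaling beyond total counts). Hspa9, the mitochondrial HSP70, fell in Hepa1 (-0.13) and rose in MEFs (0.20), and Lonp1, a matrix protease, did likewise (-0.38 and 0.28). Grpel2, an exchange factor of Hspa9, fell in Hepa1 (-0.72). Of 10 endoplasmic reticulum chaperone genes, 4 rose and 4 fell in Hepa1, and 0 rose and 7 fell in MEFs. Calr, the calreticulin gene, fell in both (-0.43 in Hepa1 and -0.38 in MEFs).

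Among 13 tested genes of other heat shock and stress induction, 2 rose and 6 fell in Hepa1, and 5 rose and 3 fell in MEFs. Without TMM scaling these were 2 higher and 3 lower in Hepa1 and 8 higher and 1 lower in MEFs. Hmox1, the heme oxygenase 1 gene, which BACH1 represses and heat or oxidative stress induces, fell in Hepa1 (-1.04) and rose in MEFs (0.77). Its difference between cell types was -1.81 (edgeR adjusted p = 4.5e-42). Hepa1 were wild-type and the MEFs were labelled Bach1-/-, so cell type and Bach1 label cannot be told apart in this value. The plot of the lists shows every gene.

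**Figure D4:**
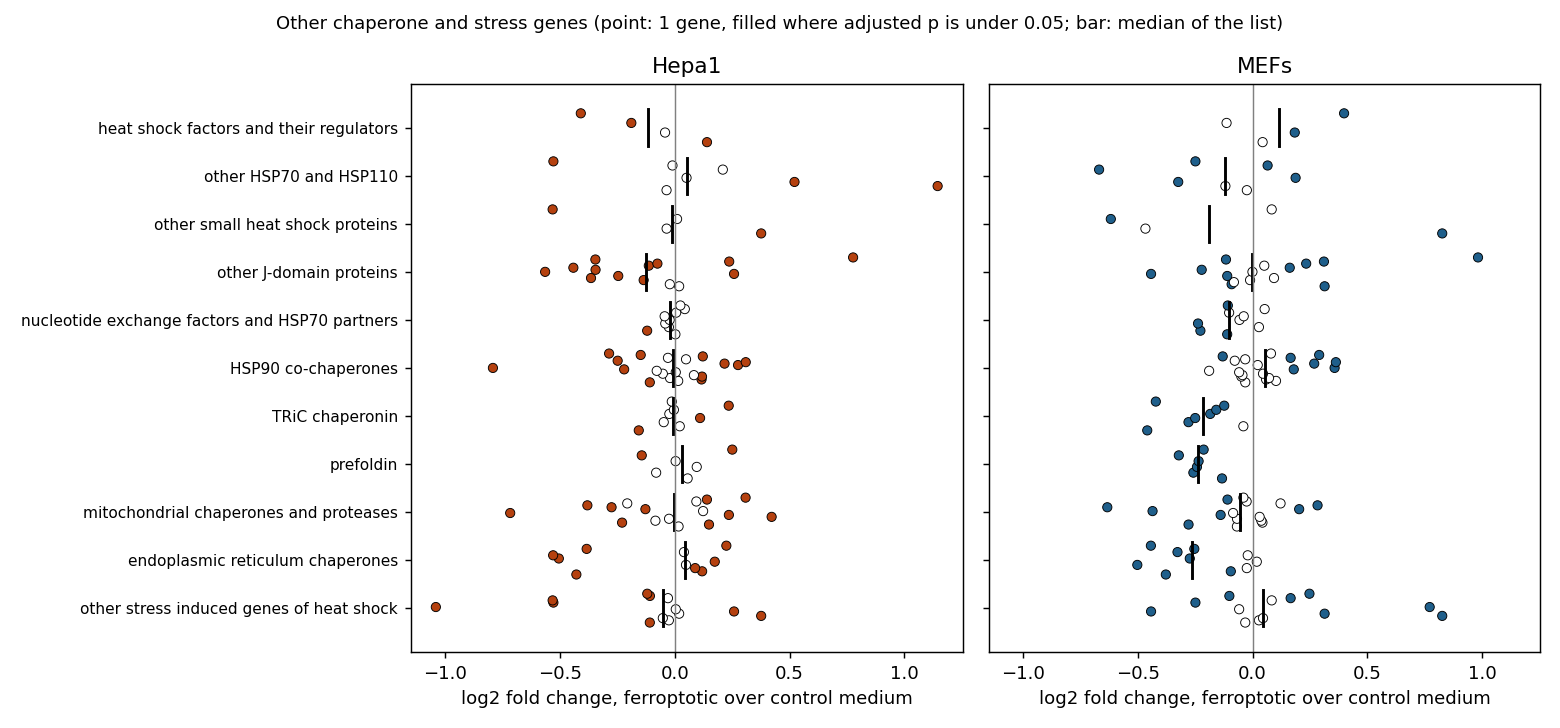
Log2 fold change, ferroptotic over control medium (horizontal axis), of each tested gene in 11 lists of other chaperone and stress genes, in Hepa1 (left) and MEFs (right). Each point is 1 gene, filled where the edgeR adjusted p is under 0.05, and bars give list medians; the TRiC and prefoldin medians lie at -0.01 and 0.03 in Hepa1 and at -0.22 and -0.24 in MEFs.

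The genes whose levels followed a member most closely were found over the 12 libraries, after the mean of each cell type was taken away, among 7617 protein-coding genes that averaged 10 CPM or more in each cell type. The measure is Pearson's r of log2(CPM + 1), given as a description, and the libraries share the medium and the cell type. For Hsp90aa1 the closest were Ttbk2 (0.995), Dlg1 (0.994) and Ccdc93 (0.994). For Hspa8 they were Ralgds (0.971), Smad1 (0.971) and Rgmb (0.969). For Hspd1 they were Parp4 (0.973), Atf2 (0.972) and 4833439L19Rik (0.972). For Dnajb1 they were Ccdc136 (0.955), Snapc2 (0.863) and Mbd6 (0.849). For Hspa1b, with 0 reads in Hepa1, only the 6 MEF libraries carry its variation, and the closest were Gdf15 (0.975), Acot2 (0.972) and Ddx39 (0.972).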

How the data were processed

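RNA-seq was measured in 12 libraries, made with the NEBNext Ultra II RNA kit from 100 ng of total RNA, per the labels' protocols. The submitters' processing notes name HTSeq 0.9.1, STAR 2.7.10a, Trimmomatic 0.39 and FastQC 0.11.9, and the builds mm10 and GRCm38. Neither the annotation release nor the strand setting is given in the labels or notes. The authors deposited raw read counts per Ensembl gene, as a table and as a file for each sample, and 0 values differed between them. The HTSeq summary lines were set apart; their shares were 2.00 to 2.58% for reads outside genes and 3.66 to 4.03% for ambiguous reads. GENCODE M21 gave names, coordinates and exon lengths.

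Groups came from the sample titles. The counts were tested with edgeR 4.0.16 in R 4.3.3 (filterByExpr, TMM, robust quasi-likelihood F-test, Benjamini-Hochberg), each cell type on its 6 libraries and the other comparisons on all 12. Biological coefficients of variation came to 3.08% (Hepa1), 2.45% (MEFs) and 2.89% (all libraries). These fits were first run on simulated data in which 200 genes changed, and the outcome is not given here. Unlike the real libraries, the simulated ones had no other differences between cell types and the same spread for all genes. Printed CPM use TMM scaling over all 12 libraries. Standard errors are the fold change over the root of F, and 95% intervals are 1.96 of them; counting intervals and floors (3 counts) cover counting error only. Ratios were tested by exact two-sided permutation. Shared sequence was counted in words of 50 bases, with a copy defined as a gene that holds at least 1% of a member's words. Alternatives used DESeq2 1.42.0, limma 3.58.1, other scaling and filters, each library left out, the replicate block, all 12 libraries, Hspa1a and Hspa1b summed, and copies added (chosen after seeing the data, as was leaving out libraries from the ratios).

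The members and lists were chosen with earlier results of these data known. The rule for named genes takes all 10 members, up to 4 genes of each list with the smallest adjusted p in either medium comparison, and the 3 genes most like each of 5 members; single markers named in the opening and copies were chosen after their values were seen.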

Additional observations from a re-analysis of the deposited data

Results flagged for a closer look

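The responses to the ferroptotic medium differed between Hepa1 and MEFs for 4 members, by the test of the difference itself in the fit over 12 libraries (log2, Hepa1 minus MEFs, edgeR adjusted p under 0.05). Such calls were common, as 23.3% of all genes were called higher and 21% lower in the same test. The Bach1 label differs together with the cell type. Hsph1 differed by 0.87, with a fall in MEFs in 3 of 3 libraries below every control library. Hsp90aa1 differed by -0.54, Hspd1 by -0.26 and Hspa8 by -0.16. For each of these 3 genes all Hepa1 libraries in ferroptotic medium lay below all Hepa1 libraries in control medium. The same held for Hsp90ab1, which was not called in Hepa1, and the share of all genes without overlap is not given here. Groups of 3 libraries are too small for a search for single outlying libraries.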

How the results depend on the processing

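Of 677 recomputed fold changes for the 38 member results with a fitted value, 647 kept their direction and their side of the threshold, 14 passed it newly, 2 no longer passed and 14 changed sign. All 14 sign changes were in results that did not pass and lay near 0. With no scaling beyond total counts Hsp90ab1 in Hepa1 was 0.000974, Hsp90aa1 in MEFs 0.0394 and Dnajb1 in the difference between cell types -0.0200. Hspd1 in MEFs was -0.0065 with copies added and ranged from -0.00899 to 0.0403 with a library left out. The Dnajb1 difference was -0.00391 with DESeq2 size factors and -0.00396 in the DESeq2 Wald test, and ranged from -0.0188 to 0.0256 with a library left out. The cause was not tested.

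Members higher in Hepa1 numbered 2 with no scaling (0 in the main test; 0 in the DESeq2 Wald test and limma-voom). Members higher in MEFs numbered 3 with no scaling and 2 with the DESeq2 Wald test, limma-voom and the filter of 1 CPM in 3 libraries (1 in the main test). With no scaling the calls over all genes in MEFs were 5234 higher and 2971 lower, against 4025 and 3946 with TMM. Replicate numbers were not treated as pairs: same-numbered libraries' deviations correlated at -0.0348 to -0.0113 in Hepa1 and 0.00132 to 0.0601 in MEFs. With the replicate block the members stayed at 0 higher and 4 lower in Hepa1 and 1 higher and 3 lower in MEFs. The ratios kept their sign with each library left out and with copies added. Without Hepa1 ferroptotic replicate 3 the 4 Hepa1 falls stayed, with Hsp90aa1 at -0.57. Depth limits Hspa1a most, at 33 to 45 reads a MEF library.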
